A study of Homo sapiens with 16 samples.

Results

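Levels of 44 genes of the core spliceosome were examined in UM-UC-3 cells, an established human bladder cancer line, 48 h after transfection with 75 nM of an siRNA against NAT10 or of a control siRNA. They were taken by gene symbol from the 58302 gene identifiers of the deposited expression table, and all 44 were found. The rule that picks them is a list of symbols and uses no measured value, but the list was drawn up with earlier results of these data known. NAT10 is the acetyltransferase that makes N4-acetylcytidine (ac4C) in RNA. The expression table holds 4 RNA-seq libraries, replicates 2 and 3 of control and of NAT10-si, and 4 further lists hold peaks from immunoprecipitation of ac4C-bearing RNA (acRIP), with 1 list per arm for each of 2 rounds, called first and replicate. The series describes 16 samples in all. Its libraries of the bladder cancer line T24 and its first pair of UM-UC-3 RNA-seq libraries were not analysed here. All cells are of a single line treated with a single siRNA against NAT10, and no label says whether replicates are separate cultures. The p-values below therefore measure the spread between libraries, which may be technical. The 2 siRNAs that separate the arms are shown because every comparison below rests on them. They are given as the labels print them, 5′ to 3′, with the 3′ TT overhang in capitals.
control siRNA: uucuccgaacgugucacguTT
NAT10-si: ccaucucucgcaucuauuuTT

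The spliceosome removes introns from pre-mRNA. The U1 particle recognises the 5′ splice site, SF1 and the U2AF proteins mark the branch site and the 3′ splice site, and the U2 particle then binds the branch site through the SF3A and SF3B complexes. The U4/U6.U5 tri-snRNP joins, the Prp19 complex and a series of helicases remodel the assembly, and catalysis follows. Small nuclear ribonucleoproteins (snRNPs) of the U1, U2, U4 and U5 class share a ring of Sm proteins. These genes are housekeeping genes whose products act in every dividing cell.

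The target was lowered in both NAT10-si libraries. NAT10 mRNA read 19.0 and 17.6 FPKM (fragments per kilobase of gene, scaled to library size) in control replicates 2 and 3, against 4.04 and 3.84 FPKM under NAT10-si. On the log2(FPKM + 1) scale used for every change below, it fell by 1.97, standard error 0.06 (limma adjusted p = 0.000111). Recovered reads numbered 35865979 in control replicate 2 and between 17281440 and 19178049 in the other 3 libraries, so control replicate 2 was the deepest. Of the 14004 genes averaging 1 FPKM or more, 55.8% passed the threshold of an adjusted p of 0.05. Of 11 luminal urothelial markers 5 exceeded 1 FPKM in a library (UPK2, PPARG, KRT7, KRT8 and KRT18), and UPK3A was listed at 0 in all 4 libraries. Of these, KRT18 fell by 0.68 on the log2 scale and KRT7 rose by 0.69. Of 6 basal markers, CD44 and ITGA6 exceeded 1 FPKM, and ITGA6 rose by 0.27. Several values outside the spliceosome moved with the arms. The summed level of 9 plasma and B cell markers was 1.00 and 0.146 FPKM with control siRNA and 59.6 and 14.0 FPKM in NAT10-si replicates 2 and 3, with IGKC, IGHA1 and IGHA2 past the threshold, JCHAIN above 1 FPKM in 1 library and MS4A1 at 0 in all. The sum of 8 T and myeloid cell markers was 1.18 and 1.07 against 4.09 and 4.29 FPKM, of which LCP1 made up most, while PTPRC and CD3D were at 0 in all 4 libraries. Of 8 fibroblast and endothelial markers, 3 exceeded 1 FPKM in a library and none passed. Their sum was 11.6 and 10.9 FPKM with control siRNA and 13.2 and 13.9 FPKM with NAT10 siRNA. MT-RNR1, MT-RNR2, MALAT1 and NEAT1 rose by log2 values of 1.24, 1.35, 1.17 and 1.25, MT-CYB and MT-ND1 fell by 0.68 and 0.14, and MT-CO1 did not pass (-0.03). The part of these shifts in the results below was not tested. In bulk RNA, a change in the mix of cells and a change of RNA per cell cannot be told apart.

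Most core spliceosome genes were lower with NAT10 siRNA. Of the 43 that passed the filter on low values, 26 fell, 5 rose and 12 did not pass the test (limma, adjusted over all 14004 genes). Over all genes tested, 27.9% fell and 27.9% rose. Of the members tested, 60.5% fell and 11.6% rose. Core spliceosome genes are abundant, with a median control level of 28.9 FPKM against 6.23 FPKM for all genes tested. Among the 4917 genes averaging 10 FPKM or more, 36.0% fell and 31.2% rose. The median log2 change was -0.26 for the members, 0.01 for all genes tested and -0.03 for those of 10 FPKM or more. Both NAT10-si libraries lay below both control libraries for 35 members and above them for 7, and the arms overlapped for 1. Of all genes tested, 80.4% had arms apart, 40.1% in the lower and 40.4% in the higher direction. The changes were moderate: 10 members had a log2 change of -0.5 or below, and 2 of these, SF3B4 and PRPF19, of -1 or below. Summed over the 44 genes, the level was 1823 and 1814 FPKM with control siRNA and 1514 and 1569 FPKM with NAT10 siRNA, a ratio of the arm means of 0.848.

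**Figure D1:**
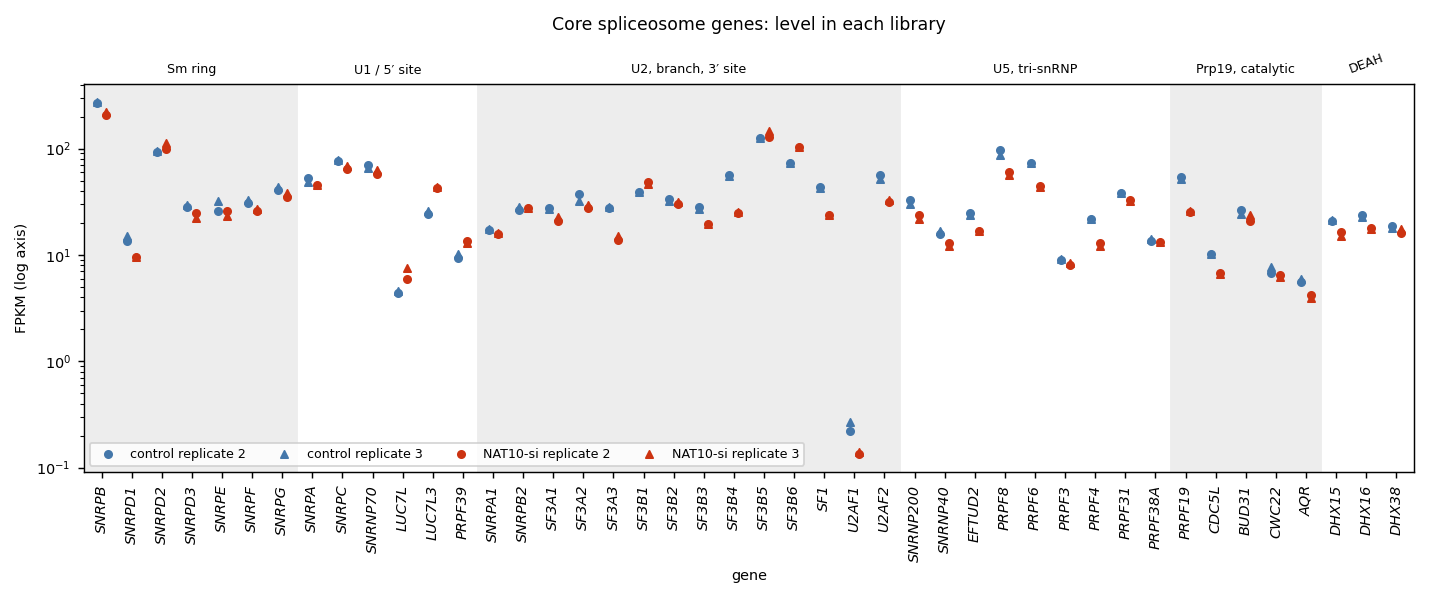
Level of each core spliceosome gene in FPKM (logarithmic axis) in the 4 UM-UC-3 libraries, with genes ordered by role. Blue symbols are control and red symbols NAT10-si, circles replicate 2 and triangles replicate 3. SNRPB is at the top, between 208 and 276 FPKM, and U2AF1 lies at the bottom, under 1 FPKM in all 4 libraries.

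The 7 Sm genes encode the ring that closes around the snRNA. SNRPB, which encodes SmB and SmB′, had the highest level of all members, with 267 and 276 FPKM in control replicates 2 and 3, against 208 and 219 FPKM in the NAT10-si libraries. Both NAT10-si libraries were lower, and the log2 change was -0.34, standard error 0.04 (limma adjusted p = 0.00209). SNRPD1 was at 13.6 and 15 FPKM with control and at 9.59 and 9.50 FPKM with NAT10 siRNA. The arms did not overlap, and its log2 change of -0.53 had the greatest size in the ring (limma adjusted p = 0.00154). SNRPD3 (-0.30), SNRPF (-0.26) and SNRPG (-0.20) also fell. SNRPD2 went the other way in level, from 93.5 and 94.7 to 99.2 and 113 FPKM, and did not pass (log2 change 0.17, limma adjusted p = 0.0852). SNRPE, at 26.1 and 31.9 against 26.0 and 23.2 FPKM, did not pass either, and its 95% confidence interval ran from -0.49 to 0.05. Within the ring 5 of 7 genes thus fell, and the summed level in NAT10-si was 0.860 of control. The calls on SNRPD3 and SNRPG depended on single libraries and on the filter, without which both were lost (limma adjusted p = 0.0501 and 0.106). SNRPD3 was lost without control replicate 3 (limma adjusted p = 0.0621, the highest of 10 alternatives, the lowest being 0.000172). SNRPG was lost without either control library or NAT10-si replicate 2 (limma adjusted p = 0.0570, 0.157 and 0.133, within a range of 0.0117 to 0.157). SNRPD2 passed as higher without NAT10-si replicate 2 (0.0126, range 0.00145 to 0.239) and SNRPE as lower without control replicate 2 (0.0358, range 0.0358 to 0.477). The table lists 10 pseudogenes named after SNRPE, 4 after SNRPF and 20 after SNRPG, whose summed levels were at most 4.77 FPKM. Reads that fit both a copy and its parent gene could have been left uncounted or split, so the values of the small Sm genes are uncertain. The levels of the copies do not bound this.

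The U1 group split by role. Of the 3 core U1 proteins 2 fell slightly, and the 3 factors associated with U1 rose. LUC7L3, a homologue of the yeast U1 protein Luc7, was at 24.1 and 25.6 FPKM with control siRNA and at 42.4 and 43.6 FPKM with NAT10 siRNA. Both NAT10-si libraries stood well above control, and the log2 change of 0.77 with a standard error of 0.05 was the highest of all members (limma adjusted p = 0.000328). PRPF39, an alternative splicing factor that binds the U1 particle, rose from 9.36 and 10.1 to 13.6 and 13.1 FPKM (log2 change 0.42, limma adjusted p = 0.00295). LUC7L, another Luc7 homologue, was at 4.39 and 4.56 against 5.95 and 7.56 FPKM. The NAT10-si libraries differed from each other by more than the controls did, and the log2 change was 0.50, standard error 0.11 (limma adjusted p = 0.0132). The LUC7L call was lost without control replicate 2, without control replicate 3 and without the filter (adjusted p = 0.0676, 0.0543 and 0.0683, the last the highest of 10 alternatives). SNRPA (U1A) was at 52.8 and 48.8 against 45.0 and 45.8 FPKM, and SNRPC (U1C), which contacts the 5′ splice site duplex, at 75.6 and 77.8 against 64.4 and 68.8 FPKM. Their log2 changes of -0.16 and -0.20 passed (limma adjusted p = 0.0470 and 0.0183). SNRNP70 (U1-70K) was at 70.1 and 66.1 against 57.7 and 63.1 FPKM and did not pass (log2 change -0.17, adjusted p = 0.0576). These 3 calls depended on single libraries. SNRPA was lost without control replicate 2 or either NAT10-si library (adjusted p = 0.191, 0.144 and 0.102, range 0.0403 to 0.191) and with the replicate number as a block (0.0748). SNRPC was lost without either control library or NAT10-si replicate 2 (0.0577, 0.0935 and 0.0646, range 0.00522 to 0.0935), and SNRNP70 passed without NAT10-si replicate 3 (0.0328, range 0.00675 to 0.229). The 6 genes together summed to the same level in both arms, with a ratio of 1.00. SNRPC has 18 named pseudogenes in the table, at a summed level of at most 1.41 FPKM. The 3′ part of PRPF39 overlaps FKBP3, a gene on the opposite strand in the RefSeq annotation, and no source used here says whether reads were counted by strand, so its value is uncertain.

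Among the proteins that define the branch site, 7 of 13 tested genes fell and 2 rose. SF3B4, a protein of the SF3B complex that contacts pre-mRNA near the branch site, was at 56.5 and 55.1 FPKM with control siRNA and at 24.9 and 25.1 FPKM with NAT10 siRNA. The arms lay far apart compared with the spread within them, and the log2 change of -1.13 with a standard error of 0.04 was the lowest of all members (limma adjusted p = 0.000134). SF3A3 went from 27.8 and 28.4 to 13.7 and 15 FPKM, a log2 change of -0.92 (limma adjusted p = 0.000323). SF1, which binds the branch site before the U2 particle does, went from 43.9 and 42.7 to 23.7 and 23.6 FPKM, a log2 change of -0.84 (limma adjusted p = 0.000209). U2AF2, which binds the polypyrimidine tract, went from 55.8 and 51.6 to 31.7 and 33.1 FPKM, a log2 change of -0.71 (limma adjusted p = 0.000533). In each of these genes both NAT10-si libraries were below both controls by several times the spread within an arm. SF3B3 (-0.47), SF3A1 (-0.32) and SF3A2 (-0.26) also fell, so all 3 SF3A genes were lower, but the SF3A2 call held in only 5 of 10 alternatives.

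Within SF3B the genes did not move together. SF3B6, a small protein that sits against SF3B1 close to the branch adenosine, was at 72.5 and 73.8 FPKM with control and at 104 FPKM in both NAT10-si libraries. This rise had a log2 change of 0.50, standard error 0.04 (limma adjusted p = 0.000469). SF3B1, the scaffold of the complex, was at 39.3 and 39.2 against 48.3 and 46.5 FPKM and also rose (log2 change 0.27, limma adjusted p = 0.00442). SF3B5, at 125 FPKM in both control libraries, was at 127 and 146 FPKM with NAT10 siRNA and did not pass (log2 change 0.12, adjusted p = 0.190). It passed as higher without NAT10-si replicate 2 (adjusted p = 0.0155, range over 10 alternatives 0.0155 to 0.672). SF3B2 did not pass (log2 change -0.09, 95% confidence interval -0.21 to 0.03). The SF3B genes therefore ranged from SF3B4, at 0.448 of its control mean, to SF3B6, at 1.42 of its control mean. The U2 proteins SNRPA1 (U2A′; log2 change -0.13, adjusted p = 0.0594) and SNRPB2 (U2B″; 0.03, adjusted p = 0.667) did not pass. SNRPB2 was the member whose arms overlapped, at 26.4 and 28 against 27.6 and 27.8 FPKM, and its log2 change was -0.015 without control replicate 2. The SF3A2 call was lost without control replicate 2 or either NAT10-si library (adjusted p = 0.102, 0.117 and 0.0595, range 0.000288 to 0.117) and with the replicate number as a block (0.0565).

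U2AF1, the partner of U2AF2 that reads the AG of the 3′ splice site, was the member left out by the filter. Its level was 0.219 and 0.267 FPKM with control siRNA, against 0.133 and 0.141 FPKM with NAT10 siRNA, from 89, 58, 28 and 28 recovered reads. Without the filter its log2 change was -0.13 (limma adjusted p = 0.175). RefSeq places U2AF1 at chr21:43092956-43107578 and lists a further gene, LOC102724594 with the synonym U2AF1L5, at chr21:6484623-6499248 (GRCh38.p14), known as a near-identical copy. Reads that fit both copies could have been left uncounted or split, so the low value of U2AF1 is uncertain.

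**Figure D2:**
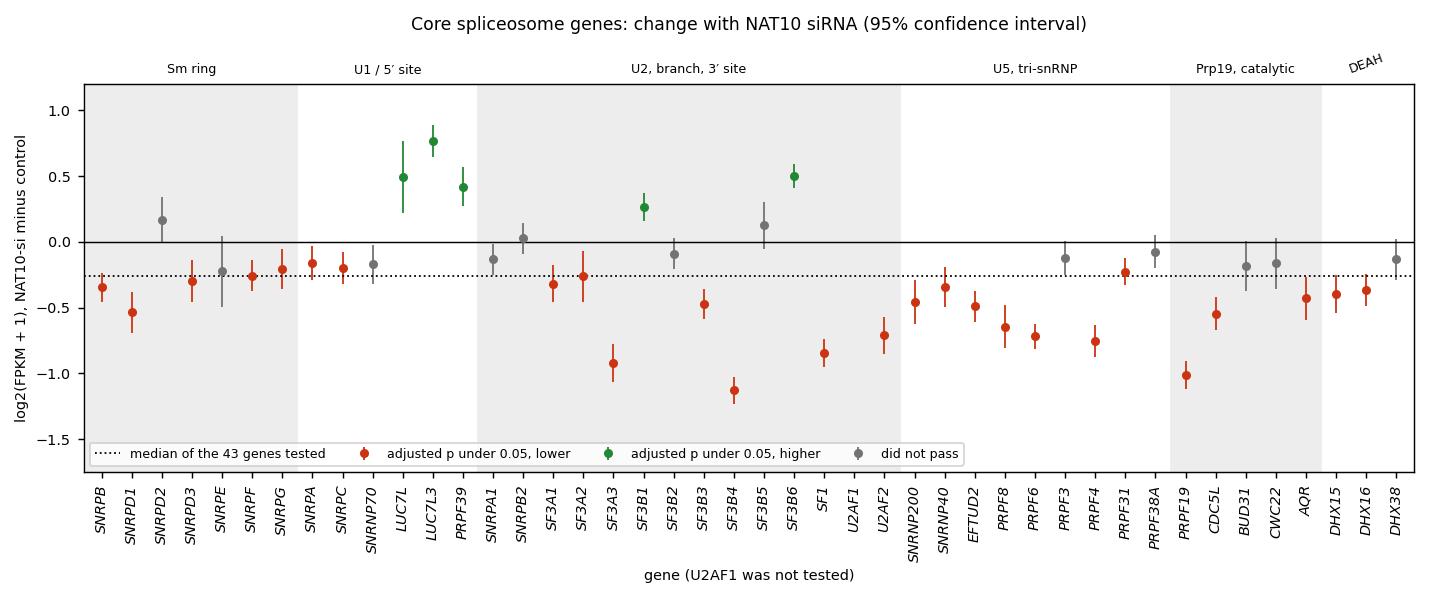
Difference in log2(FPKM + 1), NAT10-si minus control, for each of the 43 core spliceosome genes tested, with bars for the 95% confidence interval of the limma fit and genes ordered by role. Red points fell, green points rose and grey points did not pass, and the dotted line is the median of -0.26. No tri-snRNP, Prp19 or DEAH-box gene lies above 0.

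The tri-snRNP genes had lower levels throughout. All 9 had both NAT10-si libraries below both control libraries, 7 passed as lower, and the median log2 change was -0.46. PRPF8, which forms the heart of the active site, was at 97.1 and 87.9 FPKM with control siRNA and at 60.8 and 56.6 FPKM with NAT10 siRNA. The controls differed from each other more than the NAT10-si libraries did, yet the arms stayed apart, with a log2 change of -0.65 (limma adjusted p = 0.00104). PRPF6, which bridges U5 to U4/U6, went from 73.8 and 72.9 to 44.5 and 44 FPKM, a log2 change of -0.72, standard error 0.04 (limma adjusted p = 0.000223). PRPF4, a U4/U6 protein, was at 21.9 FPKM in both control libraries and at 12.9 and 12.2 FPKM with NAT10 siRNA, a log2 change of -0.75 (limma adjusted p = 0.000358). The U5 proteins EFTUD2, a GTPase, and SNRNP200, the helicase that unwinds U4 from U6, fell by 0.49 and 0.46 on the log2 scale, and SNRNP40 fell by 0.34. The U4/U6 protein PRPF31 had a smaller log2 change of -0.23 (limma adjusted p = 0.00645). PRPF3, which pairs with PRPF4 on U4/U6, was at 8.96 and 9.19 against 8.12 and 8.39 FPKM and did not pass (log2 change -0.12, 95% confidence interval -0.25 to 0.01). PRPF38A, a protein of the B complex, did not pass either (-0.07, interval -0.20 to 0.05). Summed over the 9 genes, NAT10-si was at 0.691 of control, and no single-library omission changed any of these calls.

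PRPF19, the ubiquitin ligase that names the Prp19 complex, was the other member to drop by more than 1 on the log2 scale. Its level was 54.0 and 52.2 FPKM with control siRNA, against 25.6 and 26.1 FPKM with NAT10 siRNA. The NAT10-si mean was 0.486 of the control mean (log2 change -1.01, standard error 0.04, limma adjusted p = 0.000159). CDC5L, a core partner of PRPF19, went from 10.2 FPKM in both controls to 6.73 and 6.63 FPKM (log2 change -0.55, limma adjusted p = 0.000797). AQR, a helicase that binds introns, went from 5.62 and 5.97 to 4.16 and 3.93 FPKM (log2 change -0.43, limma adjusted p = 0.00356). BUD31 and CWC22, which binds the exon junction protein EIF4A3, did not pass, with log2 changes of -0.19 and -0.16. BUD31 passed as lower without NAT10-si replicate 3 (adjusted p = 0.0382, range over 10 alternatives 0.0198 to 0.308). Of the DEAH-box helicases, DHX15, the homologue of the yeast disassembly helicase Prp43, was at 21.1 and 21.3 against 16.6 and 15.2 FPKM, a log2 change of -0.40 (limma adjusted p = 0.00320). DHX16, the homologue of Prp2, was at 23.6 and 22.7 against 18 and 17.4 FPKM, a log2 change of -0.37 (limma adjusted p = 0.00235). DHX38, the homologue of Prp16, was at 18.9 and 17.8 against 15.9 and 17.4 FPKM and did not pass (-0.13, adjusted p = 0.123). All 8 genes of these 2 groups had both NAT10-si libraries below both controls.

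By role the median log2 change ranged from 0.13 in the U1 group to -0.46 in the tri-snRNP. It was -0.26 for the Sm ring and for the U2 and branch site group, -0.37 for the DEAH-box helicases and -0.43 for the Prp19 group. These medians rest on 3 to 13 tested genes each and the differences between roles were not tested. Level and change were weakly related: across the 43 members, the log2 change and the control level had a Pearson r of -0.15 and a Spearman rho of -0.12, against -0.23 and -0.25 across all genes tested. Genes are not independent replicates, and both quantities share the control libraries. Of the 31 members that passed, 25 passed in the same direction under all 10 alternatives. The other 6 were LUC7L, SF3A2, SNRPA, SNRPC, SNRPD3 and SNRPG. In RefSeq, 16 of the 44 members overlap another gene, among them PRPF38A with ORC1, SNRPD3 with GUCD1, SF3A1 with CCDC157, DHX16 with C6orf136 and DHX38 with TXNL4B. Reads from such stretches cannot be told apart without strand, and those values are uncertain to that extent.

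The wider splicing machinery was examined through 6 lists of further genes and 28 SR and hnRNP genes, which regulate splice site choice. Of the 102 further spliceosome and snRNP assembly genes tested, 52 fell and 12 rose, and the median log2 change was -0.20. The list of tri-snRNP and B complex genes had 13 of 19 lower and none higher, and included WBP11 (log2 change -0.70), the helicase DDX23 (-0.66), TFIP11 (-0.54) and MFAP1 (-0.43). U1, U2 and early factors had 11 of 19 lower and 3 higher, with HTATSF1 (-0.86), PUF60 (-0.52) and DDX46 (-0.53) lower and ZRSR2, a 3′ splice site protein of the minor spliceosome, higher (0.72). Genes for snRNP assembly, which build Sm rings and carry snRNPs to the nucleus, had 12 of 19 lower and 2 higher. They included GEMIN4 of the SMN complex, which went from 16.7 and 16.3 to 7.11 and 7.24 FPKM (log2 change -1.10, limma adjusted p = 0.000167). PRMT5, the methyltransferase that modifies Sm proteins, went from 50.1 and 48.9 to 25.7 and 25.2 FPKM (-0.93, limma adjusted p = 0.000168). Its partner WDR77 (-0.54) and the cap methyltransferase TGS1 (-0.80) were lower too. The Prp19, catalytic and exon junction list had 14 of 29 lower and 4 higher, with RBM8A (-0.53) and BCAS2 (-0.43) lower and SRRM1 (0.51) and CASC3 (0.40) higher.

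In a pair of lists, falls did not outnumber rises. Of 8 LSm genes, which form the ring of U6 and of cytoplasmic decay, LSM2 fell (-0.31), LSM8 rose (0.23) and 6 did not pass. Of 8 minor spliceosome genes, SNRNP25 fell (-0.57), RNPC3 (0.67) and ZCRB1 (0.38) rose and 5 did not pass. SR and hnRNP genes had the highest share of falls, 22 of 28, with 2 higher and a median of -0.43. SRSF3, a small SR protein, went from 35.7 and 38.8 to 12.9 and 13.1 FPKM (log2 change -1.45, limma adjusted p = 0.000139). HNRNPM was at 66.9 FPKM in both control libraries and at 24.5 and 26.2 FPKM with NAT10 siRNA (-1.37, limma adjusted p = 0.000128). HNRNPR (-0.92) and SRSF2 (-0.81) completed the 4 genes of smallest p. No test compared these lists with the core genes.

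**Figure D3:**
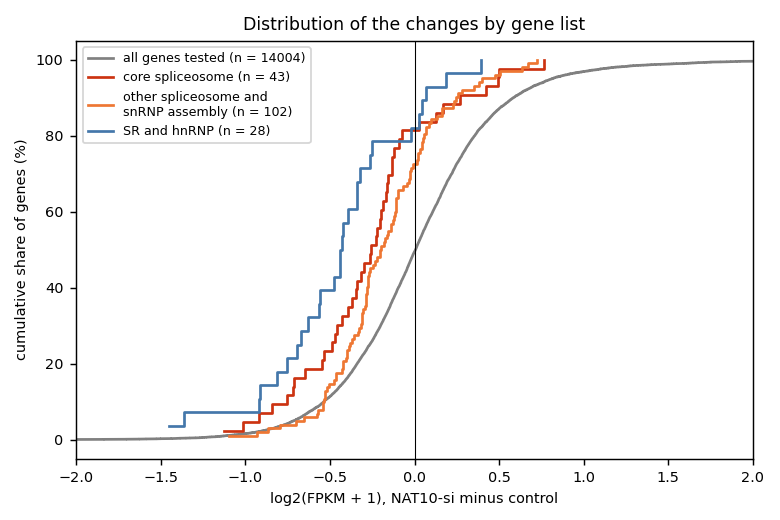
Cumulative share of genes (%) by difference in log2(FPKM + 1), NAT10-si minus control, for all 14004 genes tested (grey), 43 core spliceosome genes (red), 102 other spliceosome and snRNP assembly genes (orange) and 28 SR and hnRNP genes (blue). The curves cross 50% near 0.01, -0.26, -0.20 and -0.43 in that order.

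Promoter sequences are shown for SF3B4 and PRPF19, which fell, and LUC7L3 and SF3B6, which rose. These had the largest moves in each direction on the log2(FPKM + 1) scale. By ratio of the arm means LUC7L rose more than SF3B6 (1.51 against 1.42). Each is the 250 bases before the annotated start from RefSeq (GRCh38.p14), 5′ to 3′ on the gene's strand. Capitals mark letters of 3 common promoter motifs on either strand: the ETS core CCGGAAG (or CTTCCGG), the CCAAT box CCAAT (or ATTGG) and the GC box GGGCGGG (or CCCGCCC). The windows are chr1:149927804-149928053 (minus strand) for SF3B4, chr11:60906586-60906835 (minus) for PRPF19, chr17:50719353-50719602 (plus) for LUC7L3 and chr2:24076327-24076576 (minus) for SF3B6.
SF3B4: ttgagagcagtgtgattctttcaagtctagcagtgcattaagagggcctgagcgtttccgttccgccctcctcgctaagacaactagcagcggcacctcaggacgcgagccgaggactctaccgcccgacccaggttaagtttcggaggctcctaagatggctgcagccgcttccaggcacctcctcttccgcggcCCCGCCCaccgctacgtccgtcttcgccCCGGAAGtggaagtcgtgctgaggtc
PRPF19: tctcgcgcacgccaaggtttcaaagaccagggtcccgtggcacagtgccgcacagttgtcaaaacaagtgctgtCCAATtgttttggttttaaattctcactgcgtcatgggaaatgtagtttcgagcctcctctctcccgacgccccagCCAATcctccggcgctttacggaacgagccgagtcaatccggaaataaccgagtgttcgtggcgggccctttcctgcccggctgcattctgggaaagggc
LUC7L3: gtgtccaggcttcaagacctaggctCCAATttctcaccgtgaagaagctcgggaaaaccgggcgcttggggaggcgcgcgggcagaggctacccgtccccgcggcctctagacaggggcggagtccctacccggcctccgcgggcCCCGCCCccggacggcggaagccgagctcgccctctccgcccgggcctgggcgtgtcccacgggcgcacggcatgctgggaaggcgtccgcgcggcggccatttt
SF3B6: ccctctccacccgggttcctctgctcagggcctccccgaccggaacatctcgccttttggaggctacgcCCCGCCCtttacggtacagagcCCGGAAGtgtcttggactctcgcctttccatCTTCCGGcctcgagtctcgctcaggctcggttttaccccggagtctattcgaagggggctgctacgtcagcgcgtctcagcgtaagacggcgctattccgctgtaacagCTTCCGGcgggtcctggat
Of the 44 members, 40 had a promoter entry, including U2AF1, which was not tested. The ETS core was present in 20 of them (50.0%), against 16.6% of the 9383 promoters of tested genes. It stood in the windows of SF3B4 and SF3B6, which moved in opposite directions, and in neither PRPF19 nor LUC7L3. Among members with an entry, 12 of 24 that fell and 1 of 4 that rose held it. The CCAAT box was in 15 windows (37.5% against 35.5%) and the GC box in 16 (40.0% against 52.9%). The E-box CACGTG was in 2 (5.00% against 9.09%) and the NRF1 motif GCGCATGCG in 1 (2.5% against 3.42%). The E2F motif TTTCGCGC and the YY1 motif were in none, against 0.927% and 0.661%. All 7 motifs were counted on both strands, and none of their letter strings contains another. No share was counted over promoters of genes of similar level. A match of letters is a description and not a bound site.

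Core spliceosome transcripts carried acRIP peaks in both arms of the replicate round. In control, 33 of the 44 genes (75.0%) had 41 peaks between them, and in NAT10-si, 36 genes (81.8%) had 59. A peak was listed for 49.6% of all genes tested in control and for 64.5% in NAT10-si, and for 70.7% and 81.3% of genes averaging 10 FPKM or more. Each arm had 1 list per round, so there is no replicate check, no test and no interval for these counts. In the first round, where 3.03% of tested genes had a control peak and 3.48% a NAT10-si peak, LUC7L and SF3A1 had one in control and SNRPB and LUC7L3 one in NAT10-si. The first-round lists were far shorter, with 685 and 666 peaks against 10253 and 16753. When both replicate lists were held to the same length by p-value, 33 and 35 members had a peak (75.0% and 79.5%). The shares were 49.6% and 48.4% of all tested genes, and 70.7% and 73.3% of genes averaging 10 FPKM or more.

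In the replicate round, 32 members had a peak in both arms (72.7%), against 43.9% of all genes tested and 66.5% of genes averaging 10 FPKM or more. SNRPD3, LUC7L, SF3B2 and AQR had peaks with NAT10 siRNA and none with control, where the share of all genes tested was 20.6%. BUD31 had one in control alone (5.76% of genes tested). SNRPD1, SF3A2, U2AF1, SNRNP40, PRPF4, CDC5L and CWC22 had none in either arm (29.7%). The AQR peak did not pass a false discovery rate of 0.05. Nor did the only replicate-round control peak of SF3A1 (log10 false discovery rate -1.02), a gene counted here among those with peaks in both arms. The BUD31 peak, at chr7:99419468-99419616, lies where RefSeq also places PTCD1. By role, peaks in both arms were listed for 5 of 7 Sm genes, 5 of 6 U1 genes, 11 of 14 U2 and branch site genes, 7 of 9 tri-snRNP genes, 1 of 5 Prp19 genes and all 3 DEAH-box helicases. Of the 26 genes that fell, 19 had a control peak and 21 a NAT10-si peak. Of the 12 that did not pass, 10 had a control peak, 10 a NAT10-si peak and 9 both. Of the 5 that rose, 4 had a control peak and all 5 a NAT10-si peak.

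**Figure D4:**
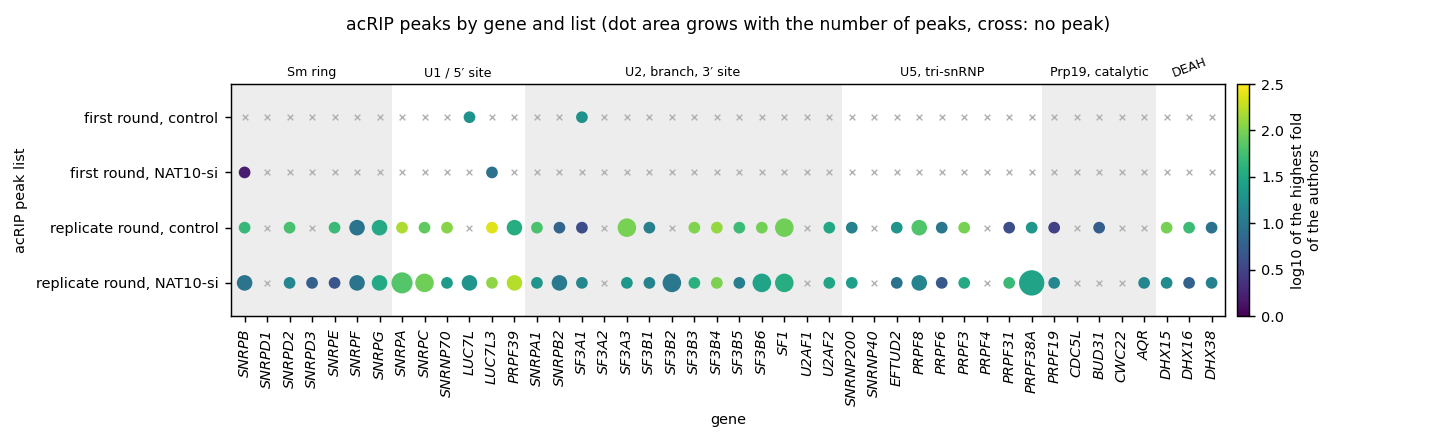
acRIP peaks of each core spliceosome gene (columns, by role) in the 4 lists (rows). Dot area grows with the number of peaks, a cross means no peak, and colour gives log10 of the highest fold that the authors list for the gene. The first-round rows hold 2 genes each and the replicate rows 33 and 36, and PRPF38A has the largest dot, with 6 NAT10-si peaks.

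Most control peaks had a NAT10-si counterpart. Of the 41 control peaks of the replicate round, 38 (92.7%) overlapped a NAT10-si peak by at least 1 base on the same strand, against 73.9% of peaks over all genes. In the other direction 39 of 59 NAT10-si peaks (66.1%) overlapped a control peak, against 44% over all genes. Core spliceosome genes are abundant, and neither share was set against peaks of genes of similar level. The peak of SF3B4 had the same borders in both lists, chr1:149923317-149923676, where RefSeq GRCh38.p14 ends the gene, although SF3B4 mRNA was at 0.448 of its control mean. SF3B3 likewise had 1 peak with the same borders in both lists, at chr16:70571971-70572301. SF1 had 3 peaks in each arm, and each overlapped its counterpart. The SF1 control peak at chr11:64765114-64765233 had a log10 false discovery rate of -0.165. It did not pass the false discovery rate cut-off applied to the AQR peak. Positions are as the lists give them. The submitters' processing notes name hg19, but every member peak overlapped its gene in GRCh38.p14, so the positions are read as that build.

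The peaks clustered at the 3′ ends of genes. The centre of a member peak lay at a median of 96.8% of the gene's span in control and 93.5% in NAT10-si (0 is the start and 100 the end). Within 1000 bases of the annotated 3′ end were 30 of 41 control peaks (73.2%, against 64.6% of peaks over all genes) and 35 of 59 NAT10-si peaks (59.3% against 56.5%). The NAT10-si list also held more member peaks spread over several blocks, 25 of 59 (42.4%, all genes 21.7%), against 8 of 41 in control (19.5%, all genes 15.5%). The authors' fold values had a median of 31.7 for members in the control list, where the median of the list was 24.1, and 11.8 in the NAT10-si list, where it was 14.0. Folds are the authors' values for each peak and describe ranks within a list. Lists of unequal length do not show a change. Exon borders were not used here, so peaks are not assigned to exons, introns or untranslated regions.

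**Figure D5:**
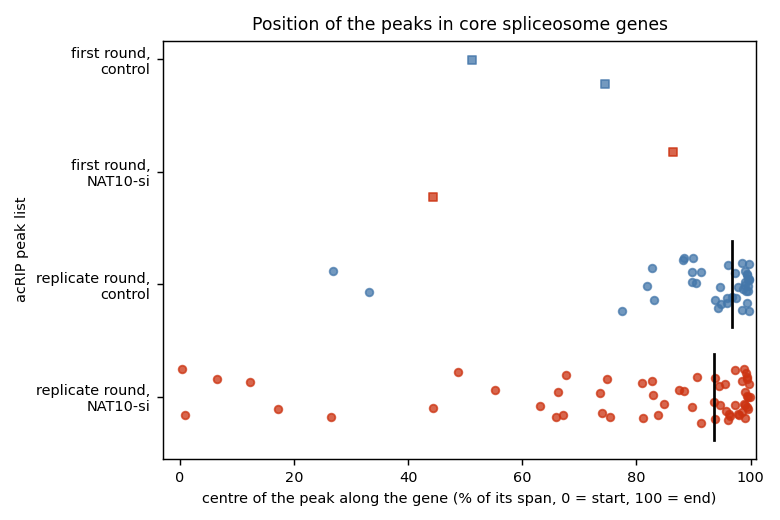
Position of the centre of each acRIP peak along its core spliceosome gene, as % of the gene's span from start (0) to end (100), in the 4 lists. Each point is a peak, vertical scatter has no meaning, and black bars are the medians of the replicate lists. Most replicate-round points lie at the right, with medians of 96.8% in control and 93.5% in NAT10-si.

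Some genes had more peaks or longer peaks in the NAT10-si list. LUC7L3, the gene with the largest rise in mRNA, had 1 control peak of 1 block at chr17:50752258-50752767, with the highest fold of any member in that list (241). Its NAT10-si peak, at chr17:50741268-50752767, covered 3267 bases in 9 blocks and took in the control peak (fold 119). PRPF38A, whose mRNA did not pass the test, had 6 NAT10-si peaks and 1 control peak, and 1 of the 6 overlapped the control peak. The PRPF38A NAT10-si peak at chr1:52420570-52420719 had a log10 false discovery rate of -1.08 and did not pass the cut-off applied to AQR. SNRPA had 4 NAT10-si peaks against 1, SNRPC 3 against 1 and SF3B6 3 against 1, each with its highest fold near the 3′ end. The SNRPC control peak, at chr6:34767964-34773794, overlapped the NAT10-si peaks at chr6:34767964-34773527 and chr6:34773586-34773794. The remaining NAT10-si peak of SNRPC, at chr6:34757465-34757645, had a fold of 2. SF3A3, one of the genes with the largest falls, had 3 control peaks and 1 NAT10-si peak. Its control peak at chr1:37957425-37957575, with a log10 false discovery rate of -1.13, did not pass that cut-off either. SNRPB had a NAT10-si peak of 3 blocks at chr20:2465816-2467657 with the same borders in the first and the replicate round. Its folds of 1.56 and 1.25 were near the bottom of both lists, and no control list held a peak there. In LUC7L a first-round control peak at chr16:208675-208855 was not seen in the replicate control list, and the 2 replicate NAT10-si peaks lay elsewhere in the gene. The PRPF39 peaks next to its 3′ end fall in the stretch shared with FKBP3, so reads of both genes could contribute to them.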

How the data were processed

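Values came from 4 RNA-seq libraries and 4 acRIP peak lists of UM-UC-3 cells. Per the submitters' processing notes, the tools were HISAT2 2.1.0, HTSeq 0.6.1 and bcl2fastq 2.19.1, on hg19. The deposited expression table names no unit. It was read as FPKM, which the authors scaled to gene length and library size, because columns sum to between 310508 and 319224 and steps depend on the gene. Each deposited peak has, per the file headers, a fold (a ratio), a p-value, and scores that are log10 of p and log10 of FDR. No source used here names the peak caller.

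Limma-trend (limma 3.58.1, R 4.3.3) was fitted to log2(FPKM + 1) of the 14004 genes averaging 1 FPKM or more, and p was adjusted by Benjamini-Hochberg (threshold 0.05). Folds of low genes are understated. Symbols were matched for 57532 of 58302 identifiers. For all 27571 genes above 0 in at least 2 libraries, values were whole multiples of 1 step (relative tolerance 4e-08). Any factor common to a gene's values is lost, so true read numbers may be higher. Scripts were tested on simulated data. Members and gene lists were chosen with earlier results of these data known. The text names all 44 members, NAT10, up to 4 genes of smallest p per other splicing list, and marker or RNA composition genes past the threshold or above 1 FPKM. Fibroblast and endothelial markers are not named and are given only as a sum. Other genes are named for overlapping or copying a member, or because they were listed at 0. Alternatives were a pseudocount of 0.1, no filter, quantile normalisation, equal library sums, voom on recovered reads, a replicate block, and leaving out each library; for peaks, a false discovery rate of 0.05, equal list lengths and an overlap covering 0.5 of the shorter peak.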

Additional observations from a re-analysis of the deposited data

How the results depend on the processing

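The counts of members that fell and rose were 26 and 5, and ranged from 21 to 28 and from 4 to 7 over 10 alternatives. With no filter on low values they were 21 and 4, among 32787 genes tested. With voom on recovered reads they were 28 and 6, and 8841 genes passed in all against 7815. The median change of the members stayed between -0.29 and -0.23. Leaving out 1 library gave between 22 and 26 members lower and between 4 and 7 higher. With the replicate number as a block, 24 members fell and 5 rose. Same-numbered libraries did not deviate together (r = 0.01 over 14004 genes), and 2 pairs cannot show whether the numbers pair the samples. The direction reversed in 1 case. SNRPB2, which did not pass, ranged from -0.015 without control replicate 2 to 0.067 without control replicate 3, and the cause was not tested. Omitting a library leaves an arm with 1 sample, assumed to vary like the other arm. At a false discovery rate of 0.05, 32 and 35 members had a replicate-round peak and 31 had one in both arms. U2AF1 had at most 89 recovered reads in a library, which limits the precision of its value.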
